A study of Mus musculus with 27 samples.

Results

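The esophagus of Keap1-/- mice was compared with that of Nrf2-/-Keap1-/- mice at postnatal day 7 (P7), to ask which part of the transcriptome that changes without Keap1 needs Nrf2. All arrays labelled with these genotypes and this age were taken, 3 of Keap1-/- and 3 of Nrf2-/-Keap1-/-, which makes 6 of the 27 arrays of the series. Both groups lacked Keap1 in every tissue, both were on the C57BL/6J background, and whole esophagus was used, so epithelium, muscle and stroma were measured together. The other P7 arrays, 3 of wild-type (WT) and 3 of Nrf2-/-, entered the same fit of 12 arrays and show where a gene lies when Keap1 is present. Replicates were labelled as biological. Esophageal RNA was labelled with Cy5 and a reference RNA pooled from mouse cell lines with Cy3, so every value below is log2 of esophagus over reference unless stated otherwise. Values of different genes are not compared with each other as levels.

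Keap1 is an adaptor of a Cul3 ubiquitin ligase that holds Nrf2 (gene Nfe2l2), a cap'n'collar transcription factor, in the cytoplasm and sends it to the proteasome. When oxidants or electrophiles modify Keap1, or when Keap1 is missing, Nrf2 enters the nucleus, pairs with a small Maf protein and binds antioxidant response elements (ARE) near genes of glutathione synthesis, NADPH supply and drug metabolism. Keap1 null pups are known to die before weaning with an overgrown cornified layer in the esophagus and forestomach, and loss of Nrf2 is known to rescue them.

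The ARE core that Nrf2 recognises was searched for as TGACNNNGC, on either strand, in RefSeq promoters (GRCm38.p6, from 250 bases before to 50 bases after each start). Of 53 genes in the lists of glutathione, thioredoxin, NADPH and detoxification enzymes that were called higher in Keap1-/- esophagus, 45 had a promoter in the table and 11 of these held a match. The 6 genes below have the largest increases among those with a match before the start. They are shown because their expression is described in the next paragraphs. The 250 bases before the start are printed 5′ to 3′ on the coding strand, with the match in capitals.
Gclm (chr3:122245307-122245556, + strand): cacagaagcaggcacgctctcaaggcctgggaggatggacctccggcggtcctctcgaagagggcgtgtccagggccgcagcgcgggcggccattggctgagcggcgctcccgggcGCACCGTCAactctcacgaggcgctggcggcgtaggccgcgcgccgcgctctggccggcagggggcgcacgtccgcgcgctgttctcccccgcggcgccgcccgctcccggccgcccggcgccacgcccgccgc
Gsta3 (chr1:21240335-21240584, + strand): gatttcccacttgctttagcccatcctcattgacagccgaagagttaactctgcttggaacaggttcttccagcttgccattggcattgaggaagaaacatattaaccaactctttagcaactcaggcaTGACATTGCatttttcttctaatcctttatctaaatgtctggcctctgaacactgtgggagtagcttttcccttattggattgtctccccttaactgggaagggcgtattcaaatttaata
Mgst1 (chr6:138140277-138140526, + strand): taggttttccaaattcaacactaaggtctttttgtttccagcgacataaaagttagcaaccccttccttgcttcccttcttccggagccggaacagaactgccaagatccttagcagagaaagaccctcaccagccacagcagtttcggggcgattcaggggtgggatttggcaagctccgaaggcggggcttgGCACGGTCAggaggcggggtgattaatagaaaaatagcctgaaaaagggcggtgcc
G6pdx (chrX:74428881-74429130, - strand): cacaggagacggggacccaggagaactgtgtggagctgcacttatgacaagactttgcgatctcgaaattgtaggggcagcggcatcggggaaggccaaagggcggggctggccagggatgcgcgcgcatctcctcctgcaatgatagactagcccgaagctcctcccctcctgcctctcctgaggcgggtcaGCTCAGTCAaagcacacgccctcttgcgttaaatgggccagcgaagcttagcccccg
Txnrd1 (chr10:82858956-82859205, + strand): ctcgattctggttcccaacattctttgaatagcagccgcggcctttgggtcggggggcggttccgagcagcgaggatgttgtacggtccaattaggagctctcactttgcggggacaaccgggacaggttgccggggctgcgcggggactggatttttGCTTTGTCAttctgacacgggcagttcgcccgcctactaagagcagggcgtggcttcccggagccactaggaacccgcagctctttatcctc
Prdx1 (chr4:116685349-116685598, + strand): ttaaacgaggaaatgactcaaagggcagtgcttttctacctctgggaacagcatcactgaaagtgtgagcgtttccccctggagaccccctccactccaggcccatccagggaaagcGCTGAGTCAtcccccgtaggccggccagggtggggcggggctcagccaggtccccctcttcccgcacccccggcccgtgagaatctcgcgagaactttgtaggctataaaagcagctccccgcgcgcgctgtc
The match began 134 bases before the start in Gclm, 133 in Prdx1, 121 in Gsta3, 92 in Txnrd1, 57 in G6pdx and 56 in Mgst1. The motif was present in 12.4% of all promoters in the table and in 16.3% of the 12477 tested genes with a promoter. It was present in 17.7% of genes called higher in Keap1-/- esophagus and in 15.4% of genes called lower. Among genes that also differed at least 2-fold these shares were 20.4% and 12.9%. These shares are descriptions of this window, which leaves out AREs that lie farther away.

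Nfe2l2 itself separated the genotypes as labelled. Its signal was -0.37, -0.15 and -0.22 in the Keap1-/- arrays and -5.60, -5.60 and -5.47 in the Nrf2-/-Keap1-/- arrays. The groups did not overlap, and the difference was 5.31 ± 0.14 (SE, n = 3 arrays per group, limma adjusted p = 1.85e-09). The Nrf2-/- arrays were low as well, with a mean of -5.31 ± 0.08 (SD, n = 3), against 0.07 ± 0.31 in WT. Nfe2l2 mRNA in Keap1-/- esophagus was not called different from WT (difference -0.32, adjusted p = 0.106). Keap1 was measured by a single probe and was -0.26, 0.22 and 0.64 in the Keap1-/- arrays and -0.50, -0.32 and -0.19 in the Nrf2-/-Keap1-/- arrays. These ranges overlapped, and neither group was called different from WT (differences -0.45 and -0.99, adjusted p = 0.143 and 0.079). Which exons the null alleles lack was not given in the sources used here, so the Keap1 probe does not check the label.

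The transcriptomes of both genotypes differed broadly. Of 18928 tested genes, 6461 differed between Keap1-/- and Nrf2-/-Keap1-/- esophagus (34.1%, limma, adjusted p of 0.05 or lower). In Keap1-/- esophagus 2922 genes (15.4%) were higher and 3539 (18.7%) were lower. At least a 2-fold difference was seen for 740 of the higher genes (3.91% of all tested) and for 896 of the lower genes (4.73%). The higher genes made up 45.2% of the calls, or 55.7% when arrays were centred on their median in place of loess. The largest increase was that of Adh7 and the largest decrease that of Pbp2. In 4177 of the 18928 tested genes every Keap1-/- array lay above every Nrf2-/-Keap1-/- array, and in 5056 every one lay below. Lack of overlap was thus common among all genes. The 12 largest increases and 12 largest decreases named below were chosen among genes without overlap. Against WT in the same fit, 6432 genes were called in Keap1-/- esophagus (34%), 83 in Nrf2-/-Keap1-/- esophagus (0.439%) and 3 in Nrf2-/- esophagus (0.0158%). At an unadjusted p of 0.05 or lower these counts were 8388, 3377 and 1991. All of these contrasts share the WT arrays. In whole esophagus fewer cells of a type and less RNA per cell cannot be told apart, here and in what follows.

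**Figure D1:**
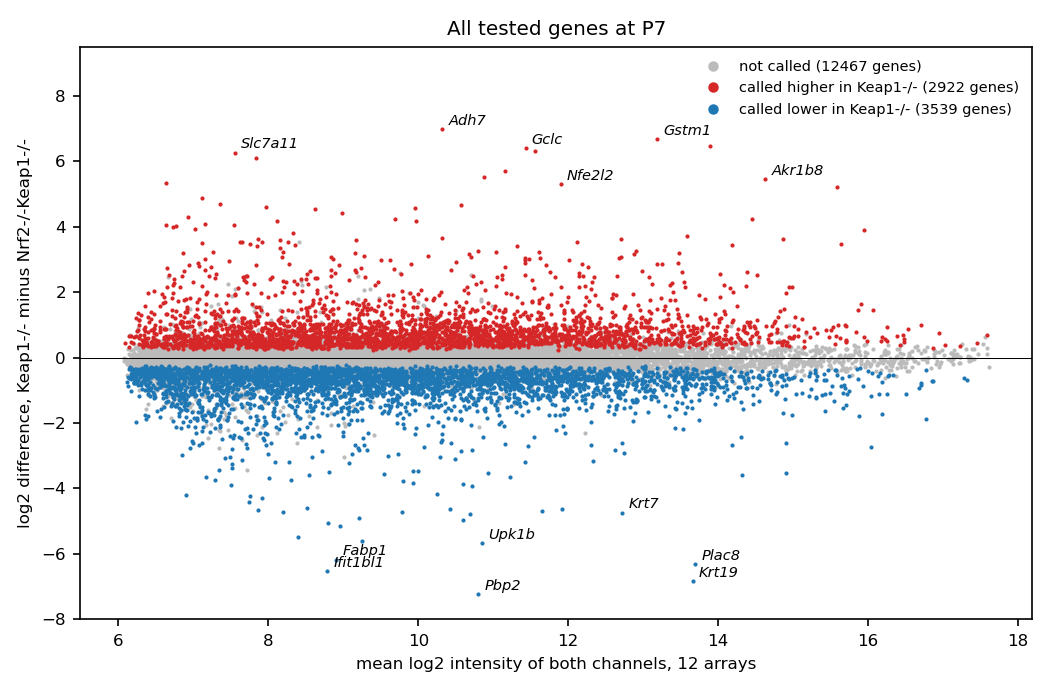
Each point is a tested gene, with the mean log2 intensity of both channels over 12 P7 arrays on the horizontal axis and the log2 difference of Keap1-/- minus Nrf2-/-Keap1-/- on the vertical axis. Red marks the 2922 genes called higher and blue the 3539 called lower in Keap1-/- esophagus, with Adh7 at 6.99 and Pbp2 at -7.24 as the extremes.

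The Keap1-/- arrays also stood apart in how they were run. They were alone on their slide and scan, whereas the Nrf2-/-Keap1-/- arrays lay on other slides of another scan, together with adult WT and P7 Nrf2-/- arrays, so genotype and slide cannot be told apart. Median Cy3 intensity was 115 to 147 in the Keap1-/- arrays and 239 to 261 in the Nrf2-/-Keap1-/- arrays, while the share of spots well above background in Cy5 was 62.1% to 63.1% and 65.4% to 68.5%. The reference RNA in the Cy3 channel was meant to be the same on every array, yet 11100 of 18928 genes (58.6%) were called between the same arrays in that channel, with a median absolute difference of 0.17 on the log2 scale against 0.30 for the ratios. The 99th percentile was 1.26 against 2.67. Of the 6461 genes called in the ratios, 4407 were also called in the reference channel. Of the 1636 genes called with at least a 2-fold ratio, 141 also differed at least 2-fold in the reference channel. The log2 ratios of the 10 spike-in probes were 1.11 to 1.72 higher in Keap1-/- arrays. When Cy5 was taken alone, scaled by quantiles, 119 of 130 called genes followed here kept their direction and call, 8 lost the call and 3 reversed. Among the 130 are the largest changes, which were picked by size. Over all tested genes Cy5 alone gave 4922 calls, of which 3772 were among the 6461 genes called in the ratios. The part of the reference channel in each call was not tested, and its difference is given beside named genes where it reached 1 on the log2 scale. With slide as a random block among the P7 arrays, all 130 kept their direction and call. That fit cannot part slide from genotype, since the Keap1-/- arrays are alone on their slide. Its consensus correlation within slides was -0.1, and it gave 7571 calls, which held all 6461. No conclusion on slide is drawn from it. In a fit of all 27 arrays with slide as a random block, chosen after seeing the data and called the 27-array slide fit here, 117 of the 130 kept the call and 13 lost it. Over tested genes, arrays correlated at 0.95 to 0.99 within Keap1-/-, 0.94 to 0.96 within Nrf2-/-Keap1-/- and 0.78 to 0.86 between them.

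Genes of glutathione synthesis and cystine uptake rose together. Of 9 genes, 7 rose, none fell, and the median difference was 2.77, against -0.04 over all tested genes. Gclc, the catalytic subunit of glutamate-cysteine ligase, which limits glutathione synthesis, was 5.83, 5.84 and 6.13 in Keap1-/- arrays and -0.32, -0.46 and -0.65 in Nrf2-/-Keap1-/- arrays. The groups were far apart, and the difference was 6.41 ± 0.40 (SE, 85.0-fold, adjusted p = 1.33e-06). Gclm, the modifier subunit of the same ligase, was 3.19, 2.79 and 3.27 against -0.31, -0.66 and -0.59. It did not overlap either and rose by 3.60 ± 0.18 (adjusted p = 1.75e-07). Slc7a11, the cystine carrier of the cystine-glutamate exchanger, was 5.04, 5.29 and 5.53 in Keap1-/- arrays. On the Nrf2-/-Keap1-/- arrays it was not well above background, so that Keap1-/- esophagus held at least 77.3-fold more (adjusted p = 1.95e-10). Such bounds use Cy5 after loess and A-quantile scaling. On each dim array the dimmest signal well above background was taken, or the gene's own signal where that was brighter, as for Slc7a11. The bounds hold for that scaling. With Cy5 scaled by quantiles the difference of Slc7a11 was 5.62. The partner chain Slc3a2, glutathione synthetase Gss and glutathione reductase Gsr rose by 2.77 ± 0.15, 3.40 ± 0.23 and 2.45 ± 0.16.

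Glutathione transferases, which conjugate glutathione to electrophiles, followed with 14 of 21 genes higher, 1 lower and a median difference of 1.84. Gstm1 was 4.82, 5.05 and 5.38 in Keap1-/- arrays and -1.74, -1.56 and -1.48 in Nrf2-/-Keap1-/- arrays, a rise of 6.68 ± 0.16 (103-fold, adjusted p = 1.19e-09). Gstm3 was 4.40, 4.72 and 4.71 against -1.93, -1.48 and -2.15, a rise of 6.46 ± 0.25 (88.3-fold, adjusted p = 2.52e-08). Neither gene overlapped between groups, which was required of the largest changes, to which both belong. Gstp1, the pi-class enzyme, rose by 3.47 ± 0.13, Gsta3 by 3.24 ± 0.47, microsomal Mgst1 by 3.07 ± 0.42 and Gsta4 by 1.10 ± 0.13 (adjusted p = 0.0582 in the 27-array slide fit). The Gsta and Gstm genes lie in families of near-identical members, and a probe may catch RNA of a neighbour in the family, so the single gene is uncertain.

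Quinone, carbonyl and heme detoxification enzymes were higher for 17 of 29 genes and lower for 2, with a median of 1.33. Nqo1, which reduces quinones by a pair of electrons, was 3.95, 3.99 and 4.18 in Keap1-/- arrays and -2.65, -1.67 and -2.56 in Nrf2-/-Keap1-/- arrays. The groups were widely separated, by 6.33 ± 0.47 (80.4-fold, adjusted p = 5.28e-06). Its WT arrays spread from -1.96 to 0.45, whereas the Nrf2-/- arrays all lay between -2.71 and -2.63. The aldo-keto reductase Akr1b8 rose by 5.45 ± 0.21, the alkenal reductase Ptgr1 by 4.25 ± 0.32 and carbonyl reductase Cbr3 by 3.71 ± 0.20. The carboxylesterase Ces1f rose by 4.89 ± 0.15, and Ces1g, which was not well above background without Nrf2, was at least 22.3-fold higher on that scaling (adjusted p = 1.03e-08), with a difference of 4.10 in the ratios, 3.88 in Cy5 scaled by quantiles and 6.71 in the processed signals of the scanner software. Both belong to a cluster of similar genes and may share signal. Aldehyde dehydrogenase Aldh3a1 rose by 3.63 ± 0.26, while its reference channel was also 2.11 higher. Among heme and iron genes, Hmox1, which opens the heme ring, was -0.75, 1.48 and 1.40 in Keap1-/- arrays and -2.40, -1.50 and -2.29 in Nrf2-/-Keap1-/- arrays. It rose by 2.77 ± 0.53 (adjusted p = 0.00248), with the lowest Keap1-/- array still above every array without Nrf2. Biliverdin reductase Blvrb and ferritin light chain Ftl1 rose by 3.25 ± 0.16 and 1.45 ± 0.14, the latter by 0.79 in Cy5 alone.

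In the thioredoxin, peroxiredoxin and peroxidase list 8 of 23 genes rose and 2 fell, with a median of 0.27. Srxn1, which repairs overoxidised peroxiredoxins, was 2.83, 3.37 and 3.49 in Keap1-/- arrays and -1.27, -1.52 and -1.52 in Nrf2-/-Keap1-/- arrays. The rise was 4.67 ± 0.16 (25.4-fold, adjusted p = 8.57e-09) with no overlap. Catalase (Cat) rose by 2.87 ± 0.33, thioredoxin reductase Txnrd1 by 2.18 ± 0.18, Prdx1 by 2.16 ± 0.25 and thioredoxin Txn1 by 2.15 ± 0.19. Gpx2, a glutathione peroxidase of epithelia, rose by 3.17 ± 0.63 (adjusted p = 0.00311). Its reference channel was 4.59 higher on the Keap1-/- arrays, and its difference in Cy5 alone was 7.35.

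Of the NADPH-supplying enzymes, 7 of 10 were higher and none lower, with a median of 1.37. G6pdx, the entry enzyme of the pentose phosphate pathway, was 1.83, 1.98 and 2.18 in Keap1-/- arrays and -0.91, -0.90 and -0.91 in Nrf2-/-Keap1-/- arrays, a rise of 2.90 ± 0.16 (7.49-fold, adjusted p = 4.15e-07). Pgd rose by 2.50 ± 0.22, transketolase Tkt by 1.94 ± 0.17, malic enzyme Me1 by 1.92 ± 0.26 and transaldolase Taldo1 by 1.44 ± 0.23 (0.85 in Cy5 alone). All 4 metallothioneins rose, with a median of 3.26. Mt1 and Mt2, which bind zinc and copper, rose by 2.61 ± 0.24 and 3.91 ± 0.32. Mt4, the form of stratified epithelia, rose by 4.55 ± 1.05 (adjusted p = 0.00696), but it was -0.18, 4.23 and 1.61 across the Nrf2-/-Keap1-/- arrays and its reference channel was 3.16 higher, with 7.08 in Cy5 alone. Of the Abcc pumps, which export conjugates, 3 of 6 tested genes rose and none fell. Abcc4 rose by 2.98 ± 0.08, Abcc1 by 2.41 ± 0.13 and Abcc3 by 2.40 ± 0.22 (3.86 in the processed signals).

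Adh7, a class IV alcohol dehydrogenase that oxidises retinol and ethanol in upper digestive epithelia, had the largest rise of all. It was 6.86, 6.54 and 6.74 in Keap1-/- arrays and -0.30, -0.55 and 0.02 in Nrf2-/-Keap1-/- arrays. The groups were separated by 6.99 ± 0.26 (127-fold, adjusted p = 1.93e-08). Adenosine deaminase Ada rose by 5.70 ± 0.26, and Rnase2b was at least 46.1-fold higher on the scaling used for bounds (adjusted p = 3.03e-08), with a difference of 5.35 in the ratios and 4.82 in Cy5 scaled by quantiles. The protease inhibitors Fetub and Slpi rose by 5.52 ± 1.19 and 5.23 ± 0.98, with wide spread in the Nrf2-/-Keap1-/- arrays: Slpi was -3.24, 1.09 and 0.25 there, and its reference channel was 1.81 lower on the Keap1-/- arrays. Slpi was 3.09 in Cy5 alone and 2.71 over all probes with its name, an alternative chosen after seeing the data.

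**Figure D2:**
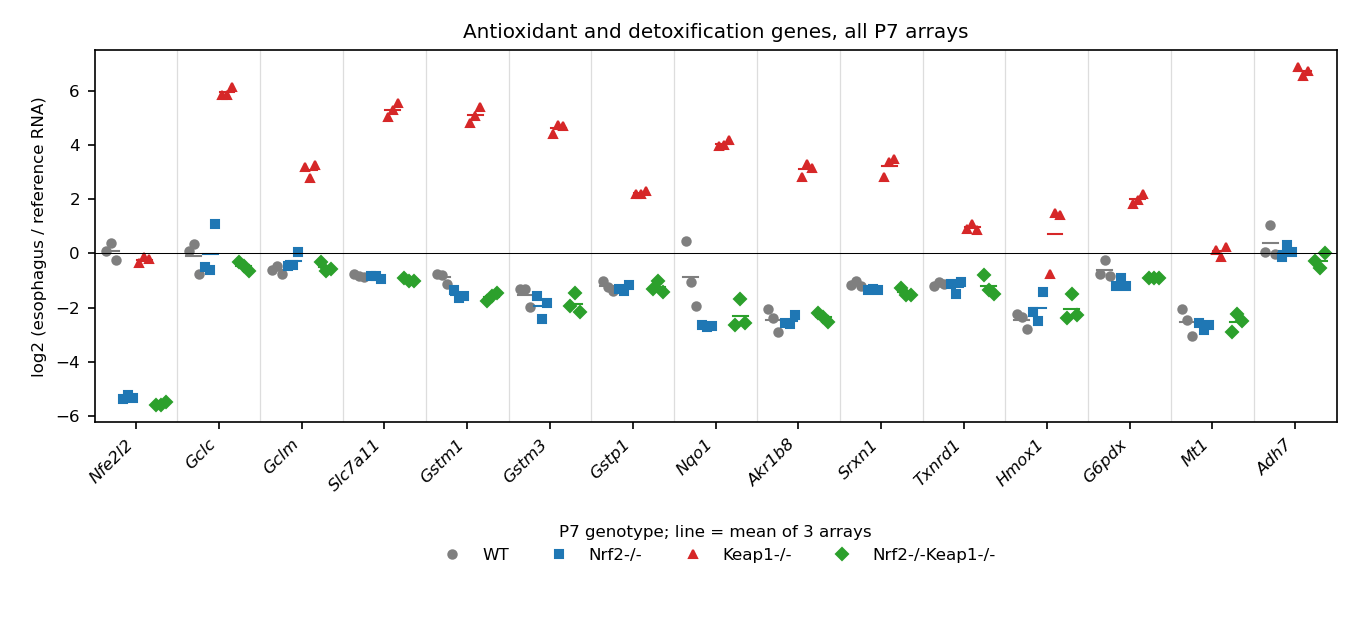
Points are single P7 arrays (3 per genotype), short lines are means and the vertical axis is log2 of esophagus over reference RNA for Nfe2l2 and antioxidant or detoxification genes. Keap1-/- arrays lie above the other 3 genotypes for every gene shown except Nfe2l2, which is lowest in the genotypes without Nrf2 (means -5.31 in Nrf2-/- and -5.55 in Nrf2-/-Keap1-/-).

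Members of the regulatory circuit also moved. In the list of Nrf2 family members, partners and regulators 5 of 14 genes, Nfe2l2 included, were higher and 1 was lower. Mafg, a small Maf partner of Nrf2, was 1.34, 1.82 and 2.04 against -0.71, -0.55 and -0.32, a rise of 2.26 ± 0.18 (adjusted p = 9.52e-06) without overlap. Bach1, which competes with Nrf2 for AREs, rose by 0.99 ± 0.23, a call lost in the 27-array slide fit (adjusted p = 0.159). Sqstm1 (p62), which binds Keap1, rose by 0.83 ± 0.13. Of the proteasome subunits 15 of 32 were higher and 2 lower (median 0.48), with Psmd11 up by 1.25 ± 0.12, Psmd7 by 1.18 ± 0.13 and Psmb5 by 0.99 ± 0.14. Psmd11 and Psmb5 were 0.70 and 0.62 in Cy5 alone. The Nrf2/Keap1 pathway list, which the study collected from the literature, held 77 higher and 58 lower genes among 273 tested, and its median was 0.01.

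**Figure D3:**
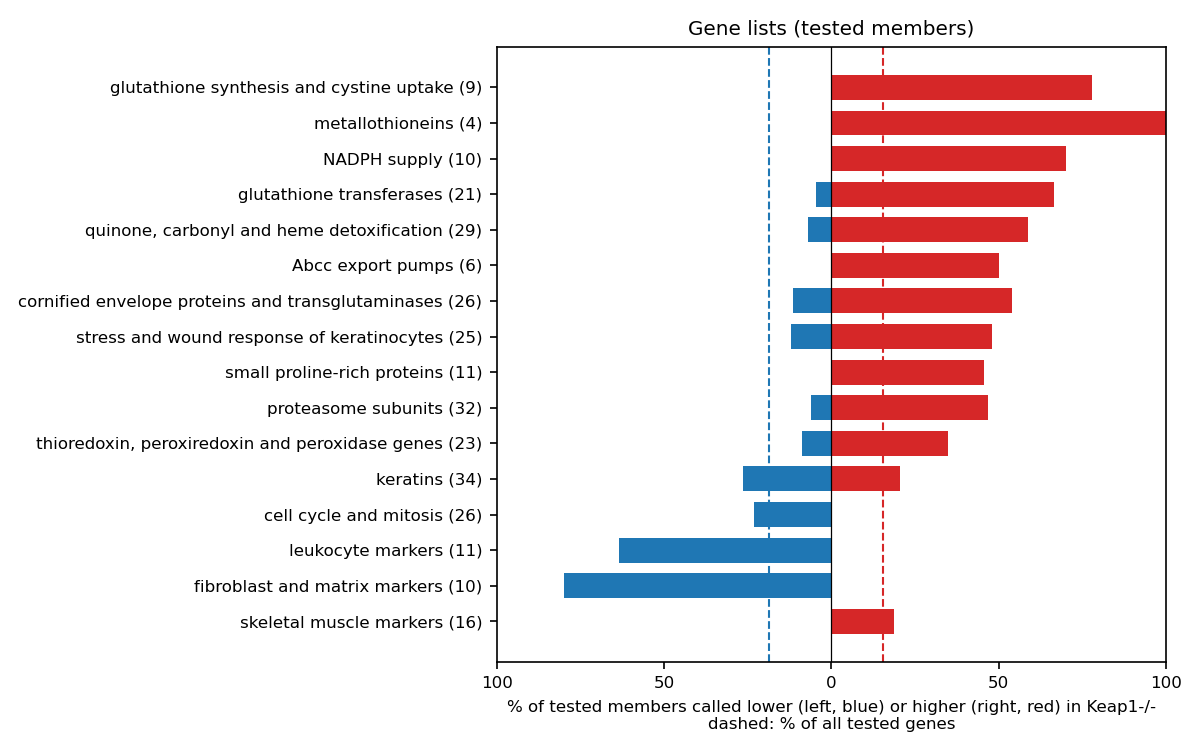
Bars give the percent of tested members of each list (number in brackets) called lower (blue, to the left) or higher (red, to the right) in Keap1-/- than in Nrf2-/-Keap1-/- esophagus. Dashed lines mark the shares over all tested genes, 18.7% lower and 15.4% higher. Bars of the glutathione synthesis, NADPH and metallothionein lists extend to the right only, and those of fibroblast and leukocyte markers to the left only.

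Squamous markers were measured in both groups, and some of them differed. They were detected on all arrays of both groups (12 of 12 genes), and their mean level was 4.04 to 4.26 in Keap1-/- arrays and 4.06 to 4.21 in Nrf2-/-Keap1-/- arrays. Of these markers 3 were higher and 2 lower (25% and 16.7%, against 15.4% and 18.7% over all tested genes). The basal keratins Krt5 and Krt14 rose by 0.92 ± 0.17 and 0.99 ± 0.22, with a reference channel 1.21 higher for Krt14. Krt14 was 2.00 in Cy5 alone and lost its call in the 27-array slide fit (adjusted p = 0.384). The transcription factor Sox2 fell by 0.98 in the ratios but was -0.29 and not called in Cy5 alone (adjusted p = 0.304). The adhesion molecule Epcam fell by 1.54, while Pax9 was not called (adjusted p = 0.857). Krt4 and Krt13, the suprabasal keratins of the esophagus, were not called (-0.46, adjusted p = 0.364, and 0.52, adjusted p = 0.0604, with 0.63 and adjusted p = 0.014 after median centring), and the reference channel of Krt4 was 1.74 lower.

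Keratins of simple epithelium fell steeply. In a list of 6 such keratins that was put together after values were seen, 4 were lower and 1 was higher (median -2.83), while over all 34 tested keratins 9 were lower and 7 higher (median -0.08). Krt19 was -4.10, -3.71 and -3.69 in Keap1-/- arrays and 2.89, 3.09 and 3.01 in Nrf2-/-Keap1-/- arrays. The groups were separated by -6.83 ± 0.13 (114-fold lower, adjusted p = 1.95e-10), and WT arrays lay at 2.53 ± 0.09 (SD, n = 3). Krt7 was -0.81, -1.03 and -1.08 against 3.74, 3.73 and 3.84, a difference of -4.74 ± 0.17 (26.7-fold lower, adjusted p = 1.09e-08). Its reference channel was 1.56 lower, and Cy5 alone gave -6.23. Krt8 fell by 3.54 and its type I partner Krt18 by 1.62 (adjusted p = 0.0475). The call for Krt18 was lost when any of the 6 arrays was left out (adjusted p 0.0503 to 0.165) and with the replicate number as a block (-1.62, adjusted p = 0.0764), and its adjusted p was 0.0851 in the 27-array slide fit.

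Most tested uroplakins and some claudins were lower in the same arrays. Upk1b, a uroplakin tetraspanin of urothelial plaques, was 1.23, 0.82 and 0.42 in Keap1-/- arrays and 6.85, 6.25 and 6.42 in Nrf2-/-Keap1-/- arrays, a difference of -5.68 ± 0.28 (51.3-fold lower, adjusted p = 1.93e-07). In a list of 6 uroplakins that was put together after values were seen, 5 were lower and none higher. Upk2 fell by 2.30, with a reference channel 2.59 lower and a Cy5 difference of -4.18, and was -0.64 and not called in the processed signals (adjusted p = 0.217). Upk3a, the partner of Upk1b in plaques, was not well above background on the Keap1-/- arrays and was at least 1.41-fold lower there (adjusted p = 0.00647), a call lost in the 27-array slide fit (adjusted p = 0.726). It was also lower than WT in Nrf2-/-Keap1-/- esophagus (-1.25, adjusted p = 0.0165). Among claudins and occludin, a list added in the same way, 9 of 24 were lower and none was higher. The tight junction claudins Cldn7, Cldn8 and Cldn3 fell by 4.68, 3.89 and 3.79, the last with a reference channel 1.66 lower. Cldn8 was -2.57 in Cy5 alone. Cldn4 fell by 1.80 in the ratios used here, but the processed signals of the scanner software gave 0.03.

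Several other strongly reduced genes have roles at mucosal surfaces. Plac8 was -1.64, -2.30 and -2.57 in Keap1-/- arrays and 3.96, 4.06 and 4.43 in Nrf2-/-Keap1-/- arrays, 80.0-fold lower (adjusted p = 2.21e-08). The amino acid carrier Slc6a14, the Duox2 maturation factor Duoxa2, the tetraspanin Tspan1 and the membrane mucin Muc20 fell by 5.49, 5.16, 5.05 and 4.96. None of these genes overlapped between the groups, which the rule for naming them required. Pbp2, a phosphatidylethanolamine-binding protein, was -0.85, -0.86 and -1.13 against 6.47, 6.04 and 6.38, the largest decrease at -7.24 ± 0.19 (151-fold, adjusted p = 1.79e-09), with a reference channel 1.09 lower. Ifit1bl1, of the interferon-induced Ifit family, was not well above background on any Keap1-/- array and was at least 81.3-fold lower there on the scaling used for bounds (adjusted p = 1.63e-09), with -5.79 in Cy5 scaled by quantiles. The platelet chemokine gene Ppbp fell by 5.60.

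**Figure D4:**
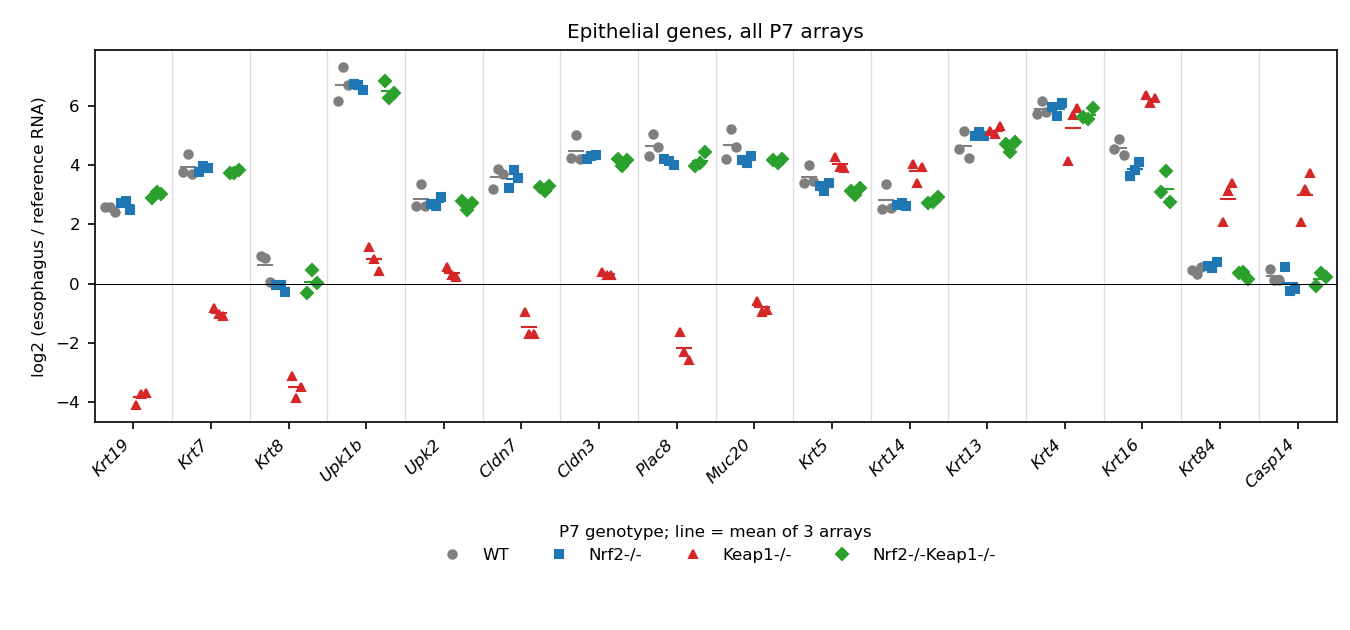
Points are single P7 arrays (3 per genotype), short lines are means and the vertical axis is log2 of esophagus over reference RNA for epithelial genes. From Krt19 to Muc20 the Keap1-/- arrays lie below all others (Krt19 -4.10 to -3.69 against 2.89 to 3.09 in Nrf2-/-Keap1-/-), and for Krt16, Krt84 and Casp14 they lie above.

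Many genes of cornification and of the stressed keratinocyte rose. Cornified envelope proteins and transglutaminases were higher for 14 of 26 genes and lower for 3 (median 0.70), and small proline-rich proteins for 5 of 11 with none lower (median 0.74). The list level of the envelope genes overlapped between groups. It was 3.34 to 4.18 in Keap1-/-, 2.55 to 3.60 in Nrf2-/-Keap1-/- and 3.08 to 3.65 in WT arrays. That of small proline-rich proteins was 3.58 to 4.25 in Keap1-/- and 3.08 to 3.19 in Nrf2-/-Keap1-/- arrays. Casp14, the protease that processes filaggrin, was 2.09, 3.18 and 3.74 in Keap1-/- arrays and -0.09, 0.37 and 0.22 in Nrf2-/-Keap1-/- arrays. It rose by 2.84 ± 0.36 (7.15-fold, adjusted p = 0.000198) without overlap. Suprabasin (Sbsn), corneodesmosin (Cdsn), desmoglein Dsg1b and transglutaminase Tgm3 rose by 1.62 ± 0.40, 2.04 ± 0.47, 2.15 ± 0.24 and 0.95 ± 0.20. In Cy5 alone Cdsn (2.07, adjusted p = 0.06) and Tgm3 (0.95, adjusted p = 0.145) were not called, and after median centring Dsg1b was 1.36. Desmocollin Dsc1 rose by 3.50 ± 0.94 (adjusted p = 0.0151), yet the groups overlapped. Its call was lost without Keap1-/- replicate 2 or 3 or Nrf2-/-Keap1-/- replicate 1 or 3 (adjusted p 0.0526 to 0.0678) and in the processed signals (adjusted p = 0.124). Sprr2h rose by 3.23 ± 0.33 and Sprr1b by 1.85 ± 0.43. The reference channel of Sprr2h was 2.08 higher, its difference was 4.93 in Cy5 alone, and Sprr2 members are near-identical. Sprr1b was 3.42 in the processed signals and 1.21 after median centring.

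Not all envelope genes rose. Involucrin (Ivl) fell by 1.39 and sciellin (Scel) by 2.40, and Ivl was not called in the processed signals (-2.06, adjusted p = 0.163). Loricrin (Lor) was not called (0.41, adjusted p = 0.161, reference channel 1.59 higher, adjusted p = 0.0388 after median centring), nor were Calm4 (0.39, adjusted p = 0.311, reference channel 2.32 higher) and the epidermal genes Krt1, Krt10 and Flg (adjusted p = 0.587, 0.871 and 0.837). These last varied widely among replicates: Krt1 was 0.89, 4.71 and 5.23 in Keap1-/- arrays and -0.26, 4.94 and 1.97 in Nrf2-/-Keap1-/- arrays. Of 14 late cornified envelope genes, 13 were not called, and Lce1m was called at 3.55 ± 1.15 (adjusted p = 0.0346). That call was lost without Keap1-/- replicate 2 or 3 or Nrf2-/-Keap1-/- replicate 1 or 3, at adjusted p of 0.104, 0.116, 0.126 and 0.107. Involucrin, Lce1m and Sprr genes lie in the epidermal differentiation complex, where 11 of 48 tested genes of the study's list were higher and 7 lower. These shares were 22.9% and 14.6%, against 15.4% and 18.7% over all tested genes.

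Among stress and wound genes of keratinocytes 12 of 25 were higher and 3 lower (median 0.65). Krt16, a keratin of hyperproliferative epithelium, was 6.38, 6.10 and 6.25 in Keap1-/- arrays and 3.08, 3.81 and 2.74 in Nrf2-/-Keap1-/- arrays, a rise of 3.03 ± 0.24 (8.16-fold, adjusted p = 9.14e-06). Its reference channel was 3.08 higher and Cy5 alone gave 5.89. Nrf2-/-Keap1-/- esophagus lay below WT for Krt16 (-1.36, adjusted p = 0.0456). Krt17 rose by 0.92 ± 0.17 and the nail and tongue keratin Krt84 by 2.57 ± 0.26, of which Krt17 lost its call in the 27-array slide fit (0.86, adjusted p = 0.0782). Krt6a rose by 0.44 (adjusted p = 0.0387), a call lost with the replicate number as a block (adjusted p = 0.0611), in the 27-array slide fit (adjusted p = 0.713) and without any array but Keap1-/- replicate 2 (adjusted p 0.0575 to 0.149). Krt6b was not called (0.22, adjusted p = 0.388, reference channel 2.18 higher), whereas it was called in Cy5 alone (2.16, adjusted p = 7.08e-05). The interleukin-36 family gene Il1f9 rose by 4.02 ± 0.32 and the alarmin S100a8 by 4.25 ± 1.19, the latter with adjusted p of 0.0523 to 0.0537 without Keap1-/- replicate 1 or Nrf2-/-Keap1-/- replicate 2 or 3. In contrast S100a3 and S100a10 fell by 3.84 and 1.44, the first with a reference channel 1.12 lower. Ptgs2, the inducible cyclooxygenase, rose by 0.94 ± 0.16 (2.64 in the processed signals). Fabp5, a lipid carrier of keratinocytes, and Pparg rose by 3.81 ± 0.37 and 1.18 ± 0.28, and Ppard by 0.38 ± 0.12 (adjusted p 0.0641 to 0.111 without Keap1-/- replicate 2 or 3 or Nrf2-/-Keap1-/- replicate 2 or 3, and 0.0538 in the 27-array slide fit). Akt2 rose by 0.80 ± 0.18 in the ratios and was -0.12 in Cy5 alone.

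Most fibroblast and leukocyte markers were lower in Keap1-/- esophagus. All 10 fibroblast and matrix markers were detected in both groups, 8 were lower and none was higher (median -1.57), and the list level was 0.85 to 1.36 in Keap1-/- and 2.30 to 2.57 in Nrf2-/-Keap1-/- arrays. Col1a1 was 0.28, -0.32 and 0.22 in Keap1-/- arrays and 1.85, 1.58 and 1.53 in Nrf2-/-Keap1-/- arrays, a difference of -1.60 ± 0.19 (adjusted p = 0.00014) without overlap. Col1a2, lumican (Lum) and decorin (Dcn) fell by 1.87, 2.62 and 1.75, and Dcn had an adjusted p of 0.0545 in the 27-array slide fit. In the study's basal lamina list 18 of 39 genes were lower and 2 higher, with Col4a5 down by 2.04. Leukocyte markers were lower for 7 of 11 genes and higher for none (list level -1.01 to -0.68 against -0.41 to -0.24), among them Itgam (by 1.58) and the macrophage gene Adgre1 (by 0.87, adjusted p = 0.0951 in the 27-array slide fit). Of 26 cell cycle genes 6 were lower and none higher, a share near that of all genes, with the replication factors Mcm6 and Pcna down by 1.23 and 0.90. Without Keap1-/- replicate 2 or 3, Pcna had an adjusted p of 0.0537 or 0.0535, and in Cy5 alone 0.122.

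Marker lists of other tissues were set beside these results. Skeletal muscle markers were at 4.74 to 5.13 in Keap1-/- and 4.55 to 4.76 in Nrf2-/-Keap1-/- arrays, with 3 of 16 higher and none lower. Smooth muscle markers were at 2.19 to 2.86 and 2.67 to 3.13. Fat markers were at 1.80 to 2.85 in Keap1-/- arrays, 3.85 to 4.75 in Nrf2-/-Keap1-/- arrays and 1.02 to 1.49 in WT arrays. Of 7 fat markers 5 were lower in Keap1-/- than in Nrf2-/-Keap1-/- esophagus. Plin1, which coats lipid droplets, was 0.79, 1.59 and 1.62 against 5.67, 4.01 and 4.68, and it was higher than WT in Nrf2-/-Keap1-/- esophagus (3.79, adjusted p = 0.0238). Adipoq, Cfd and Ucp1 were lower than in Nrf2-/-Keap1-/- esophagus by 2.32, 1.68 and 3.13. Ucp1 had a reference channel 1.34 lower and an adjusted p of 0.053 without Nrf2-/-Keap1-/- replicate 1. None of Adipoq, Cfd and Ucp1 was called in the processed signals (adjusted p = 0.258, 0.0521 and 0.136). Against WT, Adipoq and Cfd differed by 3.84 and 5.33 in Nrf2-/-Keap1-/- esophagus (limma adjusted p = 0.0298 and 0.000352). In Keap1-/- esophagus they differed from WT by 1.52 and 3.65. In a list of 17 liver genes added after values were seen, mean levels were -0.07 to 0.26 in Keap1-/- arrays and 2.11 to 3.20 in Nrf2-/-Keap1-/- arrays, 10 were lower and none higher, and 8 were not well above background on any Keap1-/- array. The liver-type genes among the largest decreases were Fabp1, at least 48.8-fold lower on the scaling used for bounds (adjusted p = 0.000672, -5.05 in Cy5 scaled by quantiles), and Ambp (-4.91 ± 1.06, adjusted p = 0.0048, and 0.0754 in Cy5 alone). Alb and Ahsg fell by 3.48 and 2.32, with reference channels 2.27 and 3.04 lower. Ahsg was -5.27 in Cy5 alone and had an adjusted p of 0.0865 in the 27-array slide fit. The part of attached fat, liver or other tissue in these calls was not tested. The Y-linked gene Eif2s3y was between 2.27 and 2.46 on the Keap1-/- arrays, 2.65, -3.52 and 2.87 on the Nrf2-/-Keap1-/- arrays and -3.46 to -2.85 on the WT arrays, so sex was not balanced between groups.

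**Figure D5:**
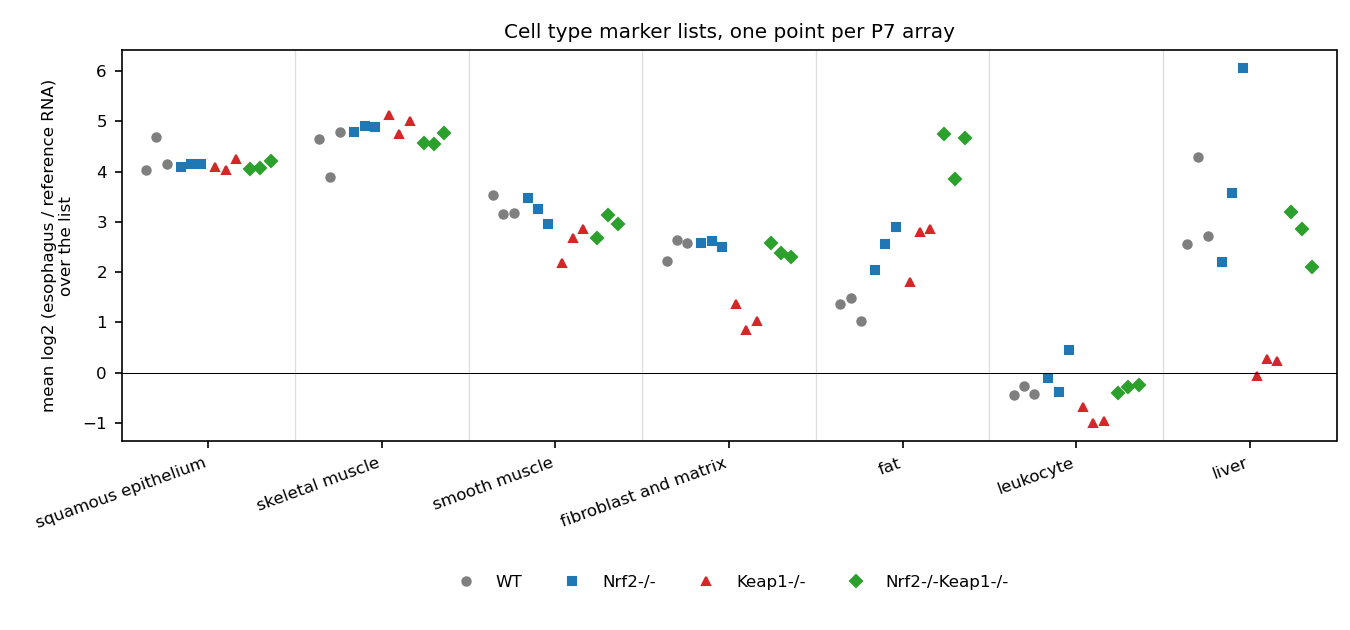
Each point is a P7 array, plotted at the mean log2 of esophagus over reference RNA of the tested genes of a marker list. The squamous list lies between 4.04 and 4.69 on every array, fibroblast, leukocyte and liver lists are lowest in Keap1-/- arrays, and the fat list is highest in Nrf2-/-Keap1-/- arrays (3.85 to 4.75).

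A gene close to the Nfe2l2 locus followed the Nrf2 genotype. Of the 20 protein-coding genes nearest to Nfe2l2, 10 on each side, 12 were tested, 1 was higher and 4 were lower in Keap1-/- esophagus. Over all tested genes 15.4% were higher and 18.7% lower, so calls are frequent without any link to the locus. Rbm45, an RNA-binding protein gene in seventh place on one side, was -1.69, -1.88 and -1.88 in Keap1-/- arrays and 0.95, 1.04 and 1.02 in Nrf2-/-Keap1-/- arrays. The groups did not overlap (-2.82 ± 0.10, 7.06-fold lower, adjusted p = 1.2e-08). It was higher than WT to a like extent in Nrf2-/-Keap1-/- (2.66, adjusted p = 2.52e-07) and in Nrf2-/- esophagus (2.64, adjusted p = 2.68e-07), whereas Keap1-/- was not called different from WT (-0.16, adjusted p = 0.23). The other calls were Ttc30b (-1.14), Hnrnpa3 (-0.57), Ttc30a1 (-0.34) and Hoxd4 (1.02). None of these was called against WT in Nrf2-/-Keap1-/- or in Nrf2-/- esophagus. The 4 probes of Hnrnpa3 ranged from -1.62 to 0.35 and its brightest probe was not called (adjusted p = 0.122), Ttc30a1 lost its call in the 27-array slide fit (adjusted p = 0.375) and without any array but Keap1-/- replicate 2 or Nrf2-/-Keap1-/- replicate 3 (adjusted p 0.0644 to 0.121) and was 0.00 and Hoxd4 -0.52 in Cy5 alone, and the reference channel of Hoxd4 was 1.73 lower. Whether DNA of another strain flanks the null allele was not tested.

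To ask whether Nrf2 acted differently with and without Keap1, the effect of Nrf2 in Keap1-/- esophagus was compared with that in mice with Keap1 (WT minus Nrf2-/-). This interaction was called for 2986 genes (15.8%), and for 43 of 62 genes of the largest changes and the fixed names. The largest changes were chosen by the difference between Keap1-/- and Nrf2-/-Keap1-/-, which is itself a term of the interaction. The count among the 62 is therefore no support and is not compared with the share of all genes. Without Keap1 the presence of Nrf2 raised Gclc by 6.41, whereas Nrf2-/- differed from WT by 0.09, giving an interaction of 6.50 ± 0.57 (adjusted p = 4.05e-05). Nqo1 gave 4.51 ± 0.67 (adjusted p = 0.00152), with Nrf2-/- 1.82 below WT in the same fit (adjusted p = 0.378). Krt19 gave -6.71 ± 0.19 (adjusted p = 1.04e-08). Nfe2l2 gave no interaction call (-0.07, adjusted p = 0.849). Set side by side, the contrasts with WT placed the lists as follows. Against WT the median of glutathione synthesis genes was 2.51 in Keap1-/- and -0.09 in Nrf2-/-Keap1-/-, that of glutathione transferases 1.44 and -0.21, and that of fibroblast markers -1.39 and -0.03. For the fat list these medians were 0.61 and 3.79. Since the Keap1-/- arrays are alone on their slide, slide and genotype cannot be told apart in the interaction either.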

How the data were processed

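Whole mouse esophagi were hybridised on Agilent 2-colour arrays against a common reference RNA. Per the file headers, the deposited spot intensity values (Cy5 and Cy3) came from Agilent Feature Extraction 10.7.3.1 for the Keap1-/- arrays and 10.5.1.1 for the other P7 arrays, while the submitters' processing notes name 9.1. The authors also deposited log10 ratios of processed signals, which equalled the scanner's own log ratios for 100% of probes within 0.005 and were used as an alternative.

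Mean intensities were background-corrected by normexp (offset 50) and normalized by loess within each array. Spots marked as outliers were kept. A spot was dropped if its local background exceeded the array median more than 5 times. Replicate spots were averaged per probe, and probes per gene, using probes matched by RefSeq accession where a gene had any (27017 of 41174 probes, 65.6%). Genes whose Cy5 signal was well above background on 3 or more of 12 P7 arrays were tested with limma 3.58.1 (lmFit, eBayes, R 4.3.3), 4 group means in 1 fit, with Benjamini-Hochberg adjustment over all of them and a threshold of 0.05. The number of arrays limits the precision, and p-values measure the spread between these arrays. A gene not well above background on every array of a group is given as at least N-fold, from Cy5 after loess and Aquantile, without dye swaps, and such a bound holds for that scaling only.

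Named were the 12 largest called increases and decreases without overlap, Nfe2l2 and Keap1, up to 4 called members of each list, a set of genes the study discussed, and called neighbours of Nfe2l2. Members, lists and names were chosen with earlier results of these data known. Some further genes were named after their values were seen. Replicate numbers came from the sample titles. Deviations of Keap1-/- and Nrf2-/-Keap1-/- arrays of the same number correlated at 0.36, 0.22 and 0.13. The main fit took no account of the number, and a fit with the number as a block was run as an alternative. The steps were tested on simulated data. Other alternatives were other background corrections, normalizations, filters, probe rules, array sets and blocks, and each array left out.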

Additional observations from a re-analysis of the deposited data

Results flagged for a closer look

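The effect of Nrf2 differed with and without Keap1 for 2986 genes, by the limma interaction at an adjusted p of 0.05 or lower, and 43 of the 62 genes of the largest changes and fixed names were among them. The largest changes were chosen by a difference that is a term of the interaction, so this count is no support. In 31 of the 43 genes the log2 effect of Nrf2 was more positive without Keap1 and in 12 it was more negative. The interaction values at the top were those of Adh7 (6.70), Gclc (6.50), Fetub (6.29), Slc7a11 (6.21), Gstm3 (6.06), Gstm1 (6.04), Ada (5.84), Akr1b8 (5.42), Rnase2b (5.39), Slpi (4.66), Nqo1 (4.51) and Srxn1 (4.46). Below these lay Gclm (3.93), Aldh3a1 (3.67), Mt2 (3.55), Sprr2h (3.53), Cat (3.26), Hmox1 (3.20), Gsta3 (2.80), Krt84 (2.74), Casp14 (2.61) and Gsr (2.55). Smaller positive values were those of Mt1 (2.47), G6pdx (2.41), Krt16 (2.31), Abcc1 (2.27), Txnrd1 (2.08), Me1 (1.23), Krt13 (0.90), Gsta4 (0.90) and Ptgs2 (0.77). The negative values were those of Pbp2 (-7.80), Ifit1bl1 (-7.05), Plac8 (-6.88), Krt19 (-6.71), Ppbp (-6.33), Tspan1 (-6.11), Fabp1 (-5.96), Upk1b (-5.73), Slc6a14 (-5.57), Muc20 (-5.46), Duoxa2 (-5.33) and Upk3a (-2.12). The Keap1-/- arrays enter each of these values and are alone on their slide.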

How the results depend on the processing

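Of 130 called genes followed here, 100 kept direction and call under every alternative of the contrast run for them (24 or 25 per gene), 28 lost the call in at least 1 and 4 reversed in at least 1. Genes with 24 lacked either the fit without outlier-marked spots or the one asking for both channels well above background. Without outlier-marked spots 15628 genes were tested in place of 18928. Such spots made up 1.85% to 3.72% of Keap1-/- arrays and 9.02% to 13.4% of Nrf2-/-Keap1-/- arrays. The fit with the replicate number as a block gave 6240 calls and 2752 interactions, and changed the calls of Krt6a and Krt18 given above and of no other called gene followed here. Against 6461 calls (2922 higher, 3539 lower) and 2986 interactions, asking for a 2-fold difference left 1636 (740, 896) and 1344. Fits of all 27 arrays, chosen after seeing the data, gave 3956 (1888, 2068) and 1525 with slide as a random block, and 3829 (1844, 1985) and 1737 with scan. Interactions numbered 1952 without outlier-marked spots. Leaving out 1 array gave 4480 to 6809 calls and 1961 (without Keap1-/- replicate 3) to 3857 interactions. The causes were not tested. The looser motif TGANNNNGC was present in 47.4% of genes called higher, as in 47.3% of all tested. Reversals among called genes were Cldn4 (0.03 with processed signals and with deposited ratios) and, in Cy5 alone, Ttc30a1 (0.00), Hoxd4 (-0.52) and Akt2 (-0.12). Genes that were not called also reversed. With processed signals and with deposited ratios alike, Krt10 was 0.94, Krt6b -0.05, Krt4 0.04, Calm4 -0.09 and Pax9 0.24. Krt10 was 0.81 without outlier-marked spots. With background subtraction Krt10 was 0.66, Krt4 0.14 and Pax9 0.29. Pax9 was 0.15 without background correction, 0.03 with median centring, 0.11 with scaling and 0.02 in Cy5 alone, where Krt13 was -0.14. Leaving out 1 array, Krt10 ranged from -1.0 to 0.81, Krt4 from -0.80 to 0.09, Flg from -0.45 to 1.56 and Pax9 from -0.29 to 0.03. Weak signal limits genes given as at least N-fold.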

Other observations

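Genes of retinoid metabolism moved in both directions. In a list of 20 tested retinoid genes that was put together after values were seen, 7 were higher and 6 lower in Keap1-/- esophagus (median 0.11). Beside Adh7, the retinoic acid hydroxylase Cyp26b1 rose by 4.18 ± 0.42 (SE, limma adjusted p = 5.02e-05, reference channel 1.87 higher). Aldh1a1 of the same list rose by 3.05 ± 0.38 (adjusted p = 0.00018), and Sdr16c5 rose as well (adjusted p = 7.71e-06). The retinaldehyde dehydrogenase Aldh1a3 fell by 3.01 (adjusted p = 4.46e-05), the retinol dehydrogenase Rdh10 by 1.00 and the retinoic acid receptor Rarb by 1.26. Of 8 EGF receptor and ligand genes, also listed after values were seen, the ligand Epgn rose by 4.70 ± 0.21 (adjusted p = 7.46e-08), while Hbegf, Areg and the receptor Egfr fell by 1.47, 1.38 and 0.58.

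Of 11 interferon-stimulated genes listed in the same way 5 were lower and none higher (median -1.29), among them Oasl2 (-2.84), Usp18 (-2.03) and Irf7 (-1.51). Ifit1 was not well above background on the Keap1-/- arrays and was at least 4.68-fold lower there (adjusted p = 0.00519). Of 13 carboxylesterases 7 were higher and none lower (median 1.31). Of 7 milk protein genes 5 were lower and none higher (median -1.88). Against WT none was called in Keap1-/- or Nrf2-/-Keap1-/- esophagus, and the medians were -0.19 and 1.67. Of the 8 on the array, 5 were not well above background on any Keap1-/- array. Such genes were tested only because arrays of other groups were brighter, so their direction is no support. The casein gene Csn2 was not well above background on the Keap1-/- arrays and was at least 2.59-fold lower there (adjusted p = 0.00832).

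The other lists are given by their counts, to be read beside the shares over all tested genes, 15.4% higher and 18.7% lower. Higher and lower shares were 10% and 5% for Notch genes, 15.8% and 5.26% for PI3K and Akt genes, and 22.2% and 5.56% for Ppar genes. Of the desmosome components 5 of 13 were higher and 1 lower. Aldehyde dehydrogenases were higher for 5 of 16 and lower for 3, cytochrome P450 genes for 5 and 9 of 54, S100 genes for 3 and 5 of 14, clade B serpins for 2 and 3 of 20, stefins and cystatin A genes for 1 and 3 of 9, and kallikreins and their inhibitors for 2 and 0 of 13. Basal layer and hemidesmosome genes were higher for 4 and lower for 3 of 17, Notch genes for 2 and 1 of 20, PI3K and Akt genes for 3 and 1 of 19, Ppar genes for 4 and 1 of 18, apoptosis and p53 genes for 4 and 1 of 11, and glucocorticoid and fasting genes for 5 and 2 of 17. Among lists that the study collected from the literature, P63 targets were higher for 24 and lower for 4 of 56, Sox2 targets for 14 and 22 of 86, and Pax9 targets for 6 and 5 of 19. The study's lists of layers gave 5 higher and 3 lower of 15 for the basal layer, 2 and 3 of 10 for the spinous layer, 5 and 0 of 14 for the granular layer, and 8 and 3 of 33 for the keratinized layer. Endothelium markers were higher for 1 and lower for 2 of 8, enteric neuron and glia markers for 1 and 3 of 10, red cell markers for 1 and 0 of 6 and smooth muscle markers for 1 and 0 of 10. Of the airway (5), stomach and intestine (7), thyroid (2) and sex (5) genes tested, none was called.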
